A study of Mus musculus with 6 samples.

Results

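The motile cilium genes examined here are 38 mouse genes for the axoneme, its dynein motors and the control of multiciliated cells, chosen by symbol. All 38 matched a gene ID, among 15939 gene IDs in all. RNA came from whole nucleus accumbens tissue of C57BL/6N mice, a ventral striatal region involved in reward, which lies close to the wall of the lateral ventricle. The saline group (libraries saline 1, 2 and 3) had saline injections, and the morphine group (libraries morphine 4, 5 and 6) had morphine injections in conditioned place preference, a training in which a drug is paired with a place. The series' design text gives 3 samples and 6 mice per group, without saying how mice were divided among samples, so p-values measure only the spread between these samples. The sources used here do not give age, sex, dose or the time after the last injection.

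Each deposited file is a catalogue of events in transcripts assembled from that library, and each gene was measured by counting its distinct events. An event is a first exon, a last exon, a skipped exon, a retained intron or an alternative exon end. The same piece of transcript can be entered under more than one event type, so event numbers are neither transcript numbers nor expression levels. The catalogues held 54641 to 58007 distinct events per library, and the read depth behind them is unknown. A gene that a catalogue does not list is not shown to be silent. Coordinates are on GRCm38, because the catalogued exon boundaries match the GENCODE M21 exons of that build.

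Motile cilia beat because dynein motors, arranged as outer and inner arms along microtubule doublets, slide the doublets against each other, while radial spokes and a central apparatus coordinate the stroke. In the brain they are carried by ependymal cells, the multiciliated epithelium that lines the ventricles and moves cerebrospinal fluid. FOXJ1 and the RFX factors are the transcription factors best known for switching these genes on, and loss of motile cilia is a known cause of hydrocephalus in mice.

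Promoter windows were available from RefSeq (GRCm38.p6) for 31 of the 38 genes. The others were Cfap53, Cfap54, Cfap65, Dnah3, Foxj1, Rsph1 and Rsph4a. The windows of 3 members are shown. All 3 carry the element marked in capitals, and the first exons of these members bear on the results below. Ak7, Ccdc39 and Ccdc40, whose first exons also do, have windows without that element, and so has another window of Tekt1. Each window shown is the 250 bases before a RefSeq start, which need not be the GENCODE start used below. The Tekt1 window lies inside the GENCODE gene, which begins at 72362442 on the minus strand. Capitals mark GTTGCC or its reverse complement GGCAAC, the core element of the RFX motif. Dnaic2 is at chr11:114727169-114727418 (plus strand), Tekt1 at chr11:72361883-72362132 (minus strand) and Cfap44 at chr16:44394549-44394798 (plus strand).
Dnaic2: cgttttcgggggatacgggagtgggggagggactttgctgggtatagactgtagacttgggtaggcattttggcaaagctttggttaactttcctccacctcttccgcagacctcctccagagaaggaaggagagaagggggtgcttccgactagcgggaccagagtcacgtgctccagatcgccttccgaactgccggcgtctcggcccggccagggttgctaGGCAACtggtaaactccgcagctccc
Tekt1: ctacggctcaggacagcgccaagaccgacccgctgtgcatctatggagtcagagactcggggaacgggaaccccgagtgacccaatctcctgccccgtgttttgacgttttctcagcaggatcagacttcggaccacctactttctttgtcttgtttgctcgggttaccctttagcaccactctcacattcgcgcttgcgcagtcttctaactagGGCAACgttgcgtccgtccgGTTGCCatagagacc
Cfap44: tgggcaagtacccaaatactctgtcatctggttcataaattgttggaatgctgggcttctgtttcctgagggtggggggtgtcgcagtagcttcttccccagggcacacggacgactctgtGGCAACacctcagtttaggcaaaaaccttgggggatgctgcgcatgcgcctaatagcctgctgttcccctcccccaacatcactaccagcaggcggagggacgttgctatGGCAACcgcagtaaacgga
The RFX element was present in 12 of the 31 members with a window (38.7%), against 11.8% of all symbols in the same table. The forkhead core TGTTTA or its reverse complement TAAACA was present in 6 of the 31 (19.4%), against 13.5% of symbols. These are letter matches on either strand, not binding sites.

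Some members were catalogued with whole coding exons both included and skipped. The 4 exons below are shown because each is wholly coding and its length is a multiple of 3, so skipping keeps the reading frame downstream. Capitals mark the exon, lower case marks 20 bases of each neighbouring exon, and the sequences are from GENCODE transcripts of minus-strand genes. Ccdc39 exon 2 (chr3:33841069-33841188) and exon 12 (chr3:33821377-33821514) are 2 of 20 exons. Cfap54 exon 3 (chr10:93066707-93066850) is 1 of 68 exons, and Tekt1 exon 5 (chr11:72354699-72354842) is 1 of 8.
Ccdc39 exon 2: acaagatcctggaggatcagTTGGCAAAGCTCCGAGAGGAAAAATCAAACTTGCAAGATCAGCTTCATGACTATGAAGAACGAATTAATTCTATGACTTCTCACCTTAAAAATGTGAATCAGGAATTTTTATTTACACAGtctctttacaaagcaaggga
Ccdc39 exon 12: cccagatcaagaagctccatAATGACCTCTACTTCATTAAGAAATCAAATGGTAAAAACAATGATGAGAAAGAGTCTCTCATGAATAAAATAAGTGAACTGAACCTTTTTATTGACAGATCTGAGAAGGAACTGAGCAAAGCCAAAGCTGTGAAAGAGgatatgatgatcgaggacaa
Cfap54 exon 3: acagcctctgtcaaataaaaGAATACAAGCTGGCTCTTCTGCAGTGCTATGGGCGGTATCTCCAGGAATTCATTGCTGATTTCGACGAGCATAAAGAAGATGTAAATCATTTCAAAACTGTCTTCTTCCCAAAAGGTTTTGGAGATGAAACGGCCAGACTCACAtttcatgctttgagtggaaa
Tekt1 exon 5: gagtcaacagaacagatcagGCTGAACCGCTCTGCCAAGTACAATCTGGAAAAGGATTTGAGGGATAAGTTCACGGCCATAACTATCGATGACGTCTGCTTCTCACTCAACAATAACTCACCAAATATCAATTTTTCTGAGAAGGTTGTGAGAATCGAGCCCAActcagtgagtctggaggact
The skipped exons are 120, 138, 144 and 144 bases long in that order. Ccdc39 exon 2 was listed as skipped in saline 1 and 2 and morphine 4 and 5, and exon 12 in saline 1 and 2 and morphine 6. Cfap54 exon 3 was listed in saline 1 and 2 and morphine 5 and 6, and Tekt1 exon 5 in saline 1 and morphine 6. None of the 4 was listed in one group alone. Cfap69, a central apparatus gene, also had exon 11 of 23 (122 bases) and exon 5 (77 bases) listed as skipped, and neither length is a multiple of 3.

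Transcripts of motile cilium genes were catalogued in every library. The number of members listed was 37, 37 and 38 in saline 1 to 3 and 36, 35 and 36 in morphine 4 to 6, and 34 of the 38 (89.5%) were listed in all 6, against 81.2% of all gene IDs. The 4 exceptions were Cfap53, Cfap58, Spag6 and Spag16. Most members had few events. Exactly 2 events, always a first and a last exon for the members, were listed for 62.2% to 77.8% of the listed members per library, against 45.4% to 47.4% of all listed genes.

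The markers of ependymal cells that are not members were also present: all 12 were listed and 10 were listed in every library. Their summed events were 28, 31 and 30 with saline and 28, 24 and 27 with morphine, and neither Sntn nor Fam216b was listed in morphine 5. Event numbers are not amounts of RNA. In bulk tissue the number of cells of a type and their RNA per cell cannot be told apart either. Both limits hold for every difference below.

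The 38 members summed to 146, 114 and 113 events in saline 1 to 3 and to 102, 115 and 108 in morphine 4 to 6. The means were 124.3 ± 18.77 and 108.3 ± 6.506 (SD, n = 3 each), a difference of -0.20 on the log2 scale. Morphine 5 lay above saline 2 and 3, so the groups overlapped, and saline 1 alone stood well above the rest. Without Ccdc39 and Dnah1, left out after seeing the data as the 2 members with most events, the sums were 111, 92 and 92 against 80, 87 and 82. Over all genes the totals were 58007, 54641 and 57132 with saline and 57981, 56546 and 56416 with morphine.

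**Figure D1:**
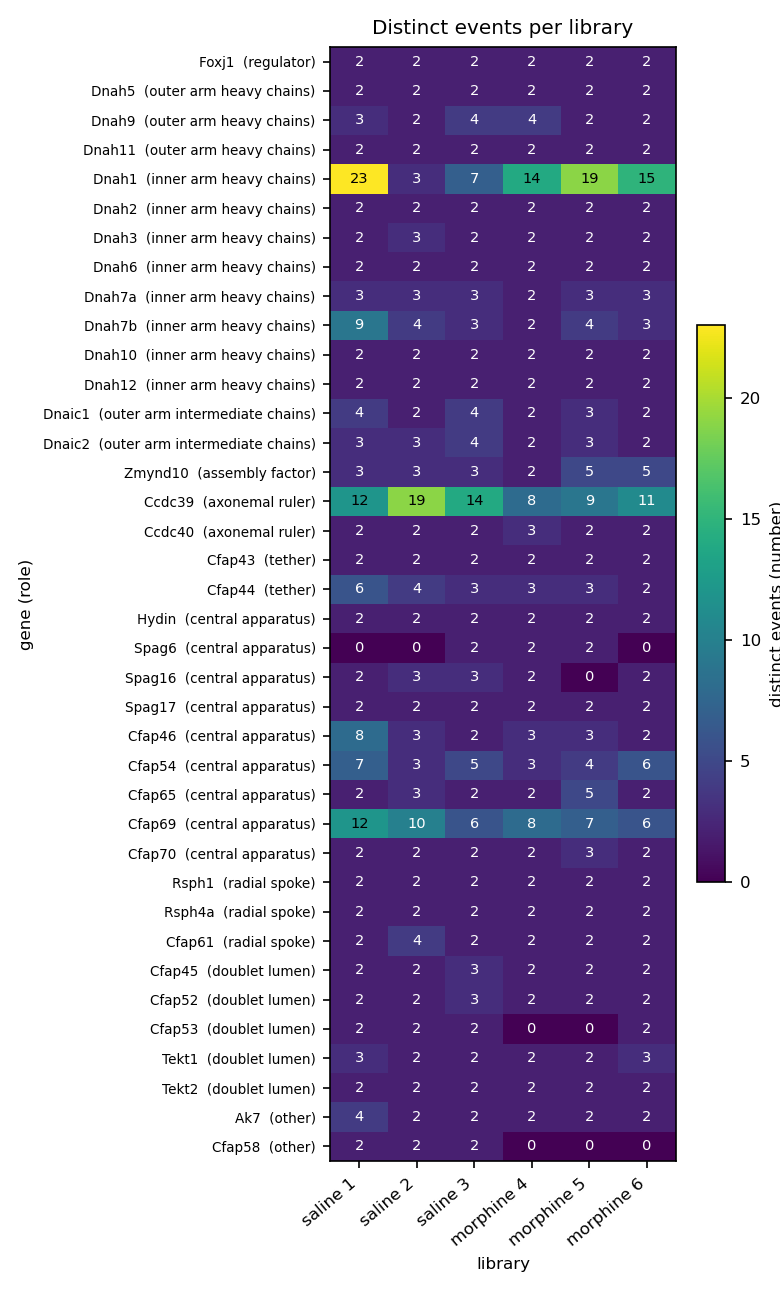
Distinct events (number, colour scale and printed value) of each of the 38 motile cilium genes (rows, with their role) in each library (columns). Ccdc39, Dnah1 and Cfap69 stand out with many events, and Cfap58 is at 0 in all 3 morphine libraries.

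All 38 members passed the filter of a mean of at least 0.5 events. Every saline library lay above every morphine library for 2 of them, Ccdc39 and Cfap58, where the same held for 1.43% of the 15040 genes tested. No member lay higher in every morphine library, against 1.64% of the genes tested. In limma with Benjamini-Hochberg adjustment over all genes 1 member was called, Cfap58, higher in saline, against 0.638% of the genes tested (0.439% higher in saline and 0.199% higher in morphine). At an unadjusted p under 0.05 limma gave 2 members, both higher in saline, against 3.19% of genes (1.52% higher in saline and 1.67% higher in morphine). The difference between the group means of log2(events + 0.5), morphine minus saline, was below 0 for 18 members, above 0 for 6 and 0 for 14. The shares below and above 0 were 47.4% and 15.8%, against 35.4% and 33.2% of all genes tested, and the median was 0 in both. With 38 genes these shares describe the members and were not tested.

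Ccdc39 encodes a coiled-coil protein that, with the product of Ccdc40, acts as the ruler of the axonemal repeat and is needed for inner arm assembly. It had 12, 19 and 14 events in saline and 8, 9 and 11 in morphine. The highest morphine library lay 1 event below the lowest saline library, so the groups did not overlap. The means were 15 ± 3.61 and 9.33 ± 1.53 (SD, n = 3 each). The log2 difference was -0.64 with a standard error of 0.22 (limma, Benjamini-Hochberg adjusted p = 0.905). The exact two-sided permutation test gave p = 0.1, the smallest possible with 3 against 3. The difference did not pass the adjusted threshold.

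The difference in Ccdc39 lay mainly in retained-intron events: 5, 9 and 7 with saline and 3, 3 and 4 with morphine. These are not numbers of introns, because the same intron can be entered under more than 1 type or pattern. In saline 2, for example, the intron between 33820016 and 33821377 was entered under more than 1 type. That intron was also listed in saline 3 and morphine 6. The intron between 33821514 and 33825391 was listed in saline 2 and 3 and morphine 4 and 5. That between 33837964 and 33839078 was listed in saline 1 and 2 and every morphine library. Only saline 2 listed that between 33816951 and 33819808, and only saline 1 and 3 that between 33830760 and 33832528. Whether the number of different introns retained differs between the groups was not tested. Saline 2 had 2 first exons and every other library had 1. Last exons numbered 4, 2 and 4 against 3, 4 and 3. Counting only first and last exons, the log2 difference was -0.10 and the groups overlapped. They also overlapped without retained introns and alternative exon ends (-0.15) and with events whose boundaries are those of annotated exons alone (-0.17). The same held with exact-boundary types alone, which leave out the type codes beginning with X (-0.43). One retained intron, between exon edges 33830157 and 33830657 on chromosome 3, was listed in all 6 libraries. The same holds for the last exon of the full-length transcript, and its first exon was listed in every library but morphine 6. Over all libraries Ccdc39 had 35 distinct events, of which 18 were listed in 1 library only. The protein-coding gene Ttc14 overlaps Ccdc39 on the opposite strand, and whether the libraries keep strand is not given in the sources used here.

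**Figure D2:**
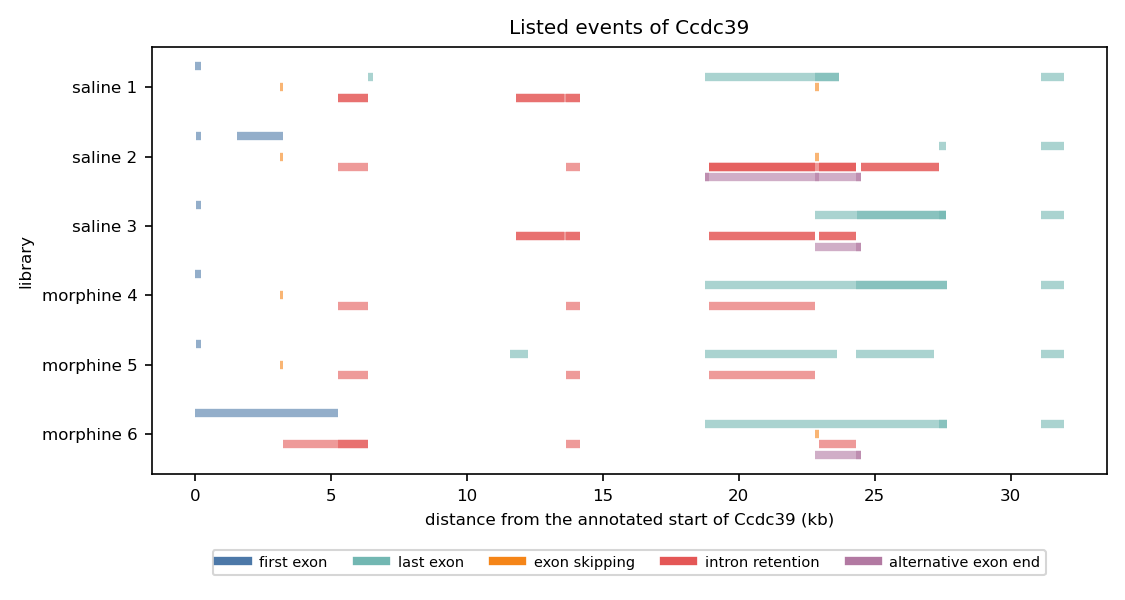
Position of each listed Ccdc39 event in kilobases from the annotated start (x axis), in each library (y axis), coloured by class. The full-length last exon at the right edge is listed in all 6 libraries, and most of the retained-intron events lie toward the 3′ end in saline 2 and 3.

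Ccdc40, the partner of Ccdc39, had 2, 2 and 2 events in saline and 3, 2 and 2 in morphine. The counts overlapped. Its full-length first exon was listed in saline 1 and 2, but not in saline 3 or any morphine library. The most upstream first exon ended 24.85 kb into the gene of 36.7 kb in saline 3 and 14.01 to 14.55 kb in morphine.

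Cfap58, a coiled-coil protein of the axoneme, had 2 events in saline 1, 2 and 3 and was not listed in any morphine library. The 2 events were 1 first and 1 last exon each time. Limma gave an adjusted p of 6.05e-06, which rests on identical counts within each group. That was also the case for 87 of the 96 genes called, and the exact permutation test gave p = 0.1. Among all gene IDs, 32 (0.201%) were listed in every saline and no morphine library, and 12 (0.0753%) the reverse. The saline libraries did not list the same transcript of Cfap58. The first exon ended 50.89 kb into the gene in saline 1, 46.0 kb in saline 2 and 3.72 kb in saline 3, of 97.7 kb in all. The span from first to last exon covered 39.0%, 46.5% and 87.3% of the gene. No library listed the first or last exon of a GENCODE basic transcript, although the listed splice sites were edges of annotated exons.

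Cfap53, a protein of the doublet lumen also needed for left-right patterning, had 2 events in saline 1, 2 and 3, against 0, 0 and 2 with morphine. Morphine 6 equalled the saline libraries, so the groups overlapped. Spag16, a central apparatus protein, had 2, 3 and 3 events in saline and 2, 0 and 2 in morphine, and only morphine 5 did not list it. Spag6, another central apparatus gene, was listed in saline 3, morphine 4 and morphine 5 with 2 events each and in no other library. In morphine 4 both of its events were on the strand opposite to the gene. Spag6 has a near-identical paralog, Spag6l, and assembly could assign reads to either, so its counts are uncertain. Spag6l had 3 events in every library from saline mice, against 2 in every library from morphine mice.

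The regulator Foxj1, the forkhead factor that drives motile ciliogenesis, had 2 events in every library. The same last exon was listed in all 6 libraries. The annotated first exon was listed in 5, and in morphine 5 the listed first exon ended 1.36 kb into the gene in place of 0.18 kb.

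The outer arm heavy chains Dnah5, Dnah9 and Dnah11 power the main stroke. Dnah5 and Dnah11 had 2 events in every library. Dnah9 had 3, 2 and 4 with saline and 4, 2 and 2 with morphine, an overlapping range. The first exon of Dnah5 ended at -48.68 kb from the annotated start, upstream of the gene, in saline 3, morphine 4 and morphine 5, at the same splice site. In those libraries the span to the last exon was 117.5% of the annotated gene. For Dnah11 no library listed the first or last exon of a GENCODE basic transcript, and all 12 of its distinct events were listed in 1 library only.

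The inner arm heavy chains, which shape the bend of the stroke, held the gene with the most events. Dnah1 had 23, 3 and 7 events in saline and 14, 19 and 15 in morphine. The saline libraries spread from below to above all morphine libraries, so the groups overlapped (means 11 ± 10.58 and 16 ± 2.646, SD, n = 3 each, exact permutation p = 0.5). Without saline 1 every morphine library lay above both remaining saline libraries.

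All Dnah1 first exons on its own strand lay near the 3′ end of the gene: the most upstream ended 52.44 to 54.53 kb into 63.5 kb. Full-length Dnah1 was therefore not catalogued. Saline 2 listed Dnah1 on the opposite strand only. Of its 56 distinct events, 40 were listed in 1 library only. Retained-intron events numbered 15, 0 and 2 with saline and 6, 10 and 6 with morphine. In all 3 morphine libraries and no saline library the same retained intron (between exon edges 31262583 and 31263119 on chromosome 14) and the last exon beginning at 31260547 were listed. These 2 are 0.494% of the members' 405 distinct events, close to the 0.321% of the 128790 events of all genes that were listed in every morphine and no saline library. Saline 1 listed a retained piece over the same intron that runs on to 31263368.

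Dnah2, Dnah6, Dnah10 and Dnah12 had 2 events in every library, and Dnah3 had 2 in every library but saline 2, where it had 3. Dnah7a had 3, 3 and 3 events in saline and 2, 3 and 3 in morphine. Its annotated first exon was listed in all 6 libraries, but in 5 of them the last exon farthest from the start lay at only 8.26 to 10.82 kb of a gene of 309.8 kb. Only morphine 4 listed a transcript that reached 283.42 kb. Dnah7b had 9, 4 and 3 events in saline and 2, 4 and 3 in morphine, with 7 of the 9 in saline 1 being first exons. Its last exon lay far beyond the annotated end of 307.2 kb in some libraries, up to 725.45 kb from the start in saline 3. Dnah7a and Dnah7b are close copies on chromosome 1, so events could be split or exchanged between them. The distant last exons do not lie in Dnah7a, which spans 53397006 to 53706784, while Dnah7b starts at 46066315. Which gene these last exons lie in was not examined.

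The outer arm intermediate chains Dnaic1 and Dnaic2 anchor the heavy chains. Dnaic1 had 4, 2 and 4 events in saline and 2, 3 and 2 in morphine, and Dnaic2 had 3, 3 and 4 against 2, 3 and 2. The groups overlapped for both genes. Full-length Dnaic2, whose promoter window is printed above, was listed in all 3 saline libraries and in morphine 5 and 6. In morphine 4 the listed first exon of Dnaic2 ended 24.51 kb into the gene, of 30.5 kb. For Dnaic1 the last exon was the annotated one in every library. Its annotated first exon appeared in saline 2 only, and in the others the most upstream listed first exon ended 44.92 to 62.01 kb into 68.4 kb.

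Zmynd10, a cytoplasmic factor needed to assemble dynein arms, had 3 events in saline 1, 2 and 3, against 2, 5 and 5 with morphine. Morphine 4 lay below and morphine 5 and 6 above the saline libraries. Both annotated ends of Zmynd10 were listed in all 6 libraries.

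The tethers Cfap43 and Cfap44 link inner arm dynein to the doublet. Cfap43 had 2 events in every library. Cfap44 had 6, 4 and 3 events in saline and 3, 3 and 2 in morphine, touching at 3. The annotated first exon of Cfap44 (ending at 44394848 on chromosome 16) was listed in all 3 saline libraries and no morphine library. In morphine the most upstream listed first exon of Cfap44 ended 25.4 to 44.38 kb into the gene, while the last exon was the annotated one in all 6. Ak7, an adenylate kinase of cilia, had the same pattern at its start: the first exon ending at 105706266 on chromosome 12 was listed in the 3 saline libraries and no morphine library. In morphine 4 and 6 the listed first exon of Ak7 ended 4.36 kb into the gene and in morphine 5 32.69 kb, of 76.5 kb. These 2 events are likewise 0.494% of the members' events, and over all genes 0.345% of events were listed in every saline and no morphine library. When events were matched by start and end in place of splice positions, 1 of the 4 one-group events was left, the retained intron of Dnah1, because the outer edges of the Cfap44, Ak7 and Dnah1 exons differed between libraries.

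The central apparatus, the pair of central microtubules with their projections, was represented by 9 members. Hydin, whose loss causes hydrocephalus in mice, and Spag17 had 2 events in every library. Cfap69 had 12, 10 and 6 events in saline and 8, 7 and 6 in morphine, touching at 6. Cfap46 had 8, 3 and 2 against 3, 3 and 2, so saline 1 alone was high. Cfap54 had 7, 3 and 5 against 3, 4 and 6. Cfap65 and Cfap70 had 2 or 3 events in every library except 5 for Cfap65 in morphine 5. By role, the 9 genes summed to 37, 28 and 26 with saline and 26, 28 and 24 with morphine, which overlapped.

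Radial spoke and doublet members had few events. Rsph1 and Rsph4a, radial spoke head proteins, had the same 2 events in all 6 libraries. Cfap61, a spoke-associated protein, had 4 events in saline 2 and 2 elsewhere. Tekt2, a tektin of the doublet, had 2 in every library, and Cfap45, Cfap52 and Tekt1 had 2 or 3. In all, 13 members (34.2%) had the same count in every library, against 22.8% of all genes tested.

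By class, the members' first exons summed to 52, 43 and 47 with saline and 43, 42 and 40 with morphine, which touched at 43. Last exons summed to 56, 45 and 51 against 43, 48 and 43. Retained-intron events summed to 25, 11 and 9 against 10, 17 and 12. Saline 1 was highest for all 3 classes. Skipped exons summed to 6, 7 and 2 against 2, 4 and 7, and alternative exon ends to 7, 8 and 4 against 4, 4 and 6.

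**Figure D3:**
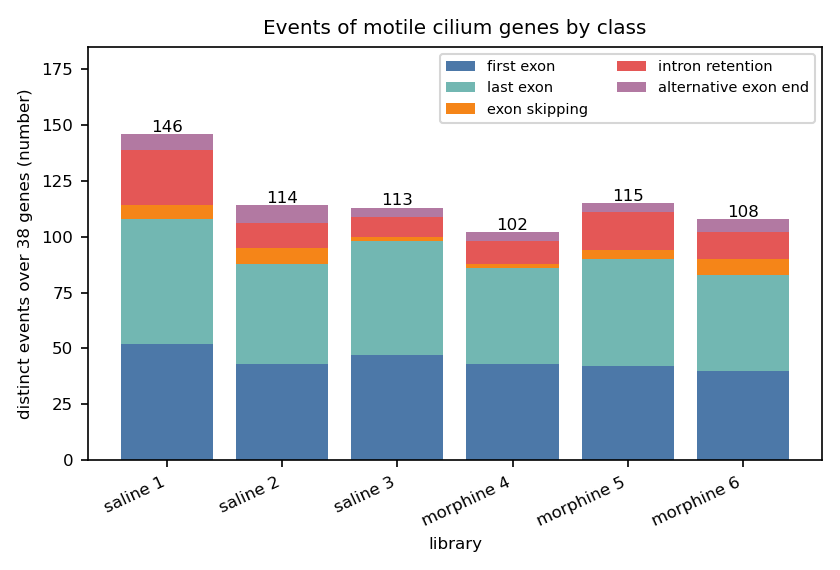
Distinct events (number, y axis from 0) summed over the 38 motile cilium genes in each library (x axis), stacked by class. Saline 1 is highest at 146 and the other 5 libraries lie between 102 and 115.

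The same member was often assembled differently from library to library. Of the 405 distinct events of the members, 20 (4.94%) were listed in all 6 libraries, against 20.9% of the events of all genes. A single library listed 278 of them (68.6%), against 50.7% over all genes. Opposite-strand entries made up 2.01% of the members' entries and 1.63% of those of all genes.

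How complete the catalogued transcripts were was described by their ends, a measure chosen after seeing the data. An end was called annotated when its splice site is that of the first or last exon of a GENCODE basic transcript on the gene's own strand. The annotated first exon was listed for 19, 22 and 20 members in saline 1 to 3 and for 14, 14 and 17 in morphine 4 to 6. As shares of the members listed on their own strand these are 51.4%, 61.1% and 52.6% in saline and 40%, 41.2% and 47.2% in morphine. Every saline library lay above every morphine library. Over all genes the share was 87.1% to 88.6% in both groups.

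Both ends were annotated for 10, 14 and 16 members in saline and 8, 9 and 9 in morphine, or 27.0%, 38.9% and 42.1% against 22.9%, 26.5% and 25%. The lowest saline library was 1 gene above the highest morphine library. With the ends of any annotated transcript, the first exon was listed for 25, 24 and 23 members against 18, 18 and 20. Both ends were then listed for 15, 16 and 18 against 10, 16 and 12, and the groups overlapped. Annotated last exons did not separate the groups (15, 17 and 22 members in saline and 17, 16 and 20 in morphine).

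**Figure D4:**
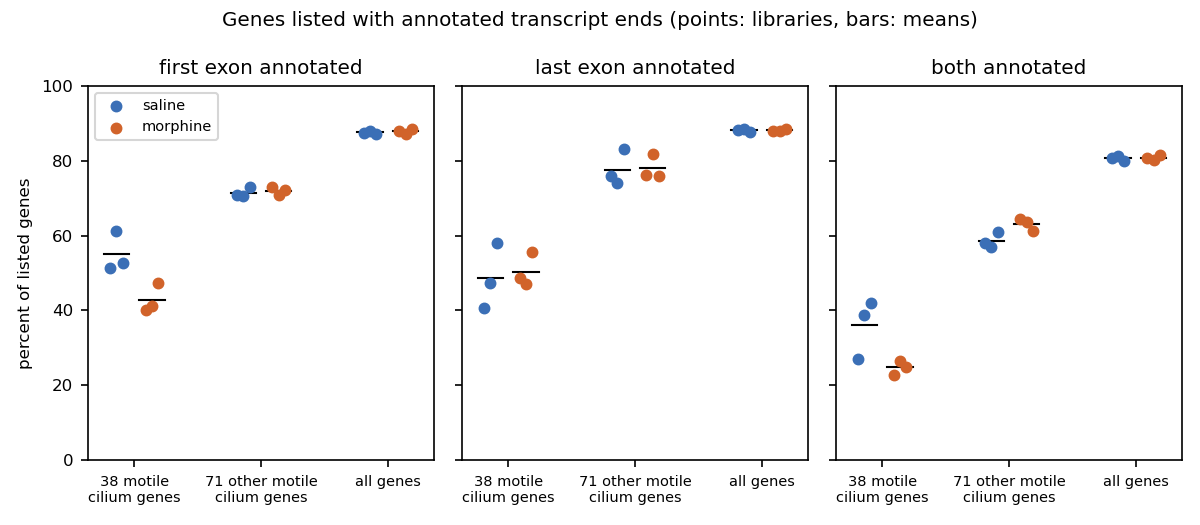
Percent of listed genes (y axis) whose first exon, last exon or both are annotated, for the 38 motile cilium genes, 71 other motile cilium genes and all genes (x axis). Points are libraries and bars are group means. For the 38 genes the first-exon shares are 51.4% to 61.1% in saline and 40% to 47.2% in morphine, and those of all genes are 87.1% to 88.6%.

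Gene by gene, the annotated first exon was listed in more saline than morphine libraries for 15 members and in more morphine libraries for 4. These are 39.5% and 10.5% of the members, against 10.5% and 8.87% of all genes tested. The 15 were Ak7, Ccdc39, Ccdc40, Cfap44, Cfap52, Cfap61, Dnah6, Dnah9, Dnah10, Dnah12, Dnaic1, Dnaic2, Foxj1, Spag16 and Tekt1. The 4 were Cfap46, Cfap65, Dnah3 and Tekt2. For 10 of the 15 the difference is 1 library. Cfap61, Dnah6, Foxj1, Spag16 and Tekt1 lacked the annotated first exon in morphine 5 alone, the library that also lacked Sntn and Fam216b. Dnaic2 and Dnah9 lacked it in morphine 4 alone and Ccdc39 in morphine 6 alone. Without morphine 5 the log2 difference in the number of members with an annotated first exon was -0.39, against -0.44 with all libraries. For the 71 genes of the 3 other motile cilium lists the groups overlapped: the first exon was annotated for 44, 41 and 43 genes in saline and 43, 39 and 39 in morphine. The difference between the 2 sets of genes was not tested.

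**Figure D5:**
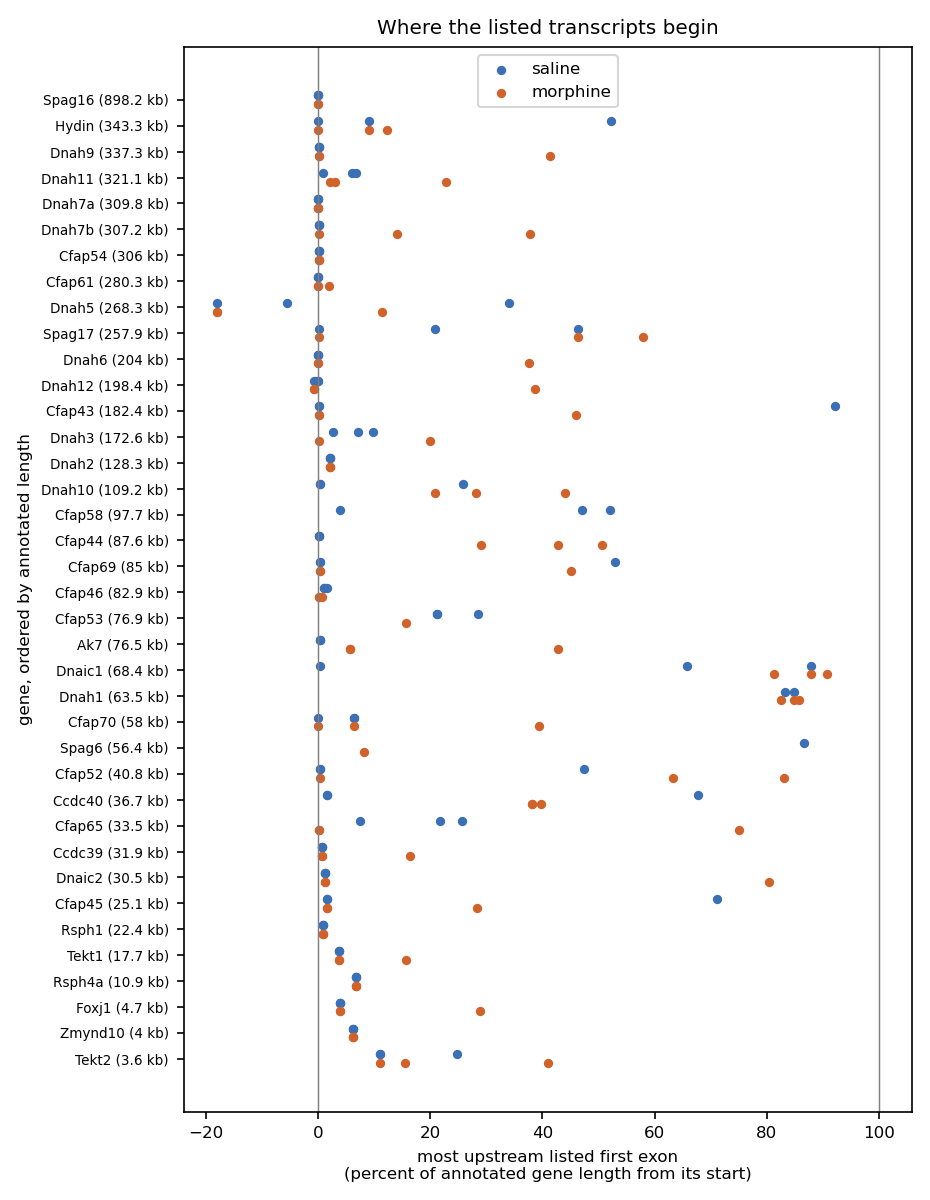
Position of the most upstream listed first exon of each motile cilium gene on its own strand, in percent of annotated gene length (x axis, 0 is the annotated start), by gene in order of length (y axis), with 1 point per library. The 6 points of Rsph1, Rsph4a and Zmynd10 coincide, those of the shortest gene, Tekt2, do not, and Cfap44 and Ak7 have all saline points at the start and all morphine points inside the gene.

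Long members seldom had both annotated ends listed. Their median span from most upstream first exon to farthest last exon varied widely. It was 91.7% of the gene for Dnah2, 96.9% for Dnah6 and 99.7% for Cfap54. For Dnah7a it was 3.0%, for Spag16 18.9% and for Dnah9 28.5%. The 2 exons need not belong to 1 transcript. Of the 16 members over 100 kb, none had both annotated ends in all 6 libraries and 11 (68.8%) had them in none. Of the 11 members of at most 40 kb, 3 (27.3%) had both in all 6 (Rsph1, Rsph4a and Zmynd10) and 0 had them in none. Among all genes over 100 kb, 49.1% had both ends in all 6 libraries and 9.77% in none. Among all genes of at most 40 kb the shares were 55.8% and 10.95%, so short members too had both ends in all 6 less often than other short genes. Across the 38 members, gene length and the number of libraries with both ends had a Spearman rho of -0.61. Across 14913 genes it was -0.01. Genes are not independent replicates, and the points share the same 6 libraries.

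The other genes of the pathway were read from lists of non-members. Among dynein arm, docking and assembly factors 21 of 24 were tested, and none lay apart between the groups in either direction. Among radial spoke, nexin link and central apparatus genes 28 of 29 were tested, and 1, Spag6l, lay higher in saline. Among doublet and other cilia proteins 17 of 19 were tested, and among multiciliation regulators 11 of 14, with none apart in either list. Of the 27 intraflagellar transport genes, which also build primary cilia, all were tested and 1 was higher in morphine. That was Ift122, a subunit of the retrograde transport complex, with 2, 2 and 2 events in saline and 4, 11 and 6 in morphine (log2 difference 1.48, exact permutation p = 0.1).

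Marker lists of other cells were read in the same way. The 10 medium spiny neuron markers were listed in every library, with sums of 39, 39 and 42 with saline and 39, 41 and 39 with morphine. Among them Rgs9 lay higher in every morphine library, with 4, 4 and 4 events in saline and 5, 6 and 6 in morphine (exact permutation p = 0.1). The 6 astrocyte markers summed to 16, 16 and 16 against 15, 16 and 16. Of 13 choroid plexus markers 12 were listed in some library and 8 in all, with sums of 24, 18 and 25 against 21, 23 and 20. Ttr was listed in every library and Slc4a5 in none. Tmem72, another choroid plexus marker, had 2 events in saline 1, 2 and 3 and was listed in no morphine library, the same counts as Cfap58. The 6 neuroblast or cycling markers summed to 15, 15 and 18 with saline and 12, 14 and 14 with morphine, which did not overlap. The part of other cell types in the members' differences was not tested.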

How the data were processed

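RNA-seq libraries of mouse nucleus accumbens (3 saline, 3 morphine) were analysed from 1 deposited event catalogue each. The sources used here do not give the aligner, assembler, event caller, build or depth, so no counting interval was computed. The authors deposited a column headed fpkm, but it holds whole numbers from -24 to 0 in these files. It was not used, and the planned expression test was replaced by a test of event numbers. Of 20 event type codes, 12 were counted (the codes ending in OFF repeat an event for its partner transcript). Entries with the same gene ID, type, splice pattern and strand were taken as one event across libraries. Symbols matched 15815 of 15939 gene IDs.

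Events per gene were compared with limma 3.58.1 in R 4.3.3 (lmFit, eBayes with trend) on log2(events + 0.5), for genes with a mean of at least 0.5, with Benjamini-Hochberg adjustment over 15040 genes and a threshold of 0.05. The script was tested on simulated data. For single genes the exact permutation test (two-sided) and non-overlap of the groups were added. Fold differences are on the log2(value + 0.5) scale, except for sums and for numbers of genes with annotated ends, which have no pseudocount. Ends and exons came from GENCODE M21, promoters from RefSeq. Values in every library are given for members whose groups do not overlap, the 10 with most events, those unlisted in a library and those with a one-group event. Others described with values were chosen after their values were seen. The members and lists were chosen with earlier results of these data known. Alternatives covered the event types counted, scaling, filter, pseudocount, variance model, ends used and leaving out each library.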

Additional observations from a re-analysis of the deposited data

How the results depend on the processing

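No paired analysis was possible because the saline and morphine libraries share no replicate numbers. The number of members lying higher in every saline library was 2, and it was 1, Cfap58 alone, with first and last exons alone, without retained introns and alternative exon ends, with annotated boundaries alone and with exact-boundary types alone. It was 2 to 4 when 1 library was left out. The number higher in every morphine library was 0, and 0 to 1 with 1 library left out (Dnah1 without saline 1, Zmynd10 without morphine 4). Limma called 1 member, and 1 to 2 with 1 library left out (Zmynd10 was added without morphine 4 and Cfap53 without morphine 6). One-group events numbered 4, then 1 when matched by start and end, and 7 to 13 with 1 library left out, a change that fewer libraries give by construction. The summed log2 difference of -0.20 kept its sign under every alternative run, between -0.07 and -0.26 with 1 library left out. The log2 difference in members with an annotated first exon (-0.44) and with both ends (-0.62) also kept its sign under the alternatives run. Of 195 alternative values for 15 named members, 6 moved by more than the spread between libraries, 3 of them for Ccdc39. The sign changed in 6, for 3 members whose groups overlap: Cfap46 (0.08 without saline 1), Cfap54 (0.09 without saline 1, 0.04 without morphine 4) and Dnah9 (0.25 with annotated boundaries alone, 0.08 on its own strand alone, 0.04 without saline 3). The unknown depth limits every absence from a catalogue. The causes of these changes were otherwise not tested.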
